A study of Mus musculus with 5 samples.

Results

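The genes described here mark the cells of blood and lymph vessels in gastrocnemius muscle, and they comprise 36 genes chosen by name, of 35275 genes in the table. They fall into 14 pan-endothelial and capillary genes, 4 arterial, 3 venous, 3 lymphatic, 6 pericyte and 6 smooth muscle genes. All 36 were found by symbol in the mouse annotation, and 34 reached a mean of 1 FPKM (reads scaled by gene length and by the total of the library) and entered the tests, while Sele and Prox1os did not. The muscle came from female NSG (NOD scid gamma) mice, whose genotype is labelled Wild Type, at 12 weeks of age. Mice of this strain have mutations in Prkdc and Il2rg that leave them without mature T, B and NK cells, a limit that every sample shares. Each mouse was injected in the tail vein with extracellular vesicles (membrane-bound particles that cells release) from MCF-10A/miR122 cells, about 10 µg per injection, 2 injections a week for 5 weeks and 10 in all, and the muscle was taken 2 days after the last one. MCF-10A is a human mammary epithelial cell line that does not form tumours. The labels give 1 group of 5 samples, and no untreated sample was analysed here, so the values give levels of vessel genes after treatment and their spread between libraries. The labels do not say that each sample is a separate animal, and the spread between samples may in part be technical.

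Endothelial cells line every vessel. They are held together by cell-cell junctions, depend on VEGF and angiopoietin receptors, and take on arterial, capillary, venous or lymphatic features. Mural cells surround them: pericytes lie on capillaries, and contractile smooth muscle cells wrap arteries and veins. Skeletal muscle is rich in capillaries that run along the fibres, and slow oxidative fibres are known for having more of them than fast fibres. The measurement is of whole tissue, so fewer cells of a type and less RNA per cell cannot be told apart.

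The stretches of promoter below show where a letter motif shared by many pan-endothelial genes lies. ETS factors, among them the endothelial regulator Erg, bind sequences built around the core GGAA, and the motif searched was AGGAAG on both strands, in the 250 bases before the start of the gene. RefSeq (GRCm38.p6) gave such a stretch for 27 of the 36 genes. AGGAAG was found in 8 of 11 pan-endothelial genes, 1 of 2 arterial, 2 of 2 venous, 0 of 2 lymphatic, 0 of 5 pericyte and 0 of 5 smooth muscle genes, and in 32.3% of all 27025 genes with a promoter in the table. Only Egfl7 and Erg, both pan-endothelial, had more than 1 stretch among these genes, with 3 each. A gene was counted if any of its stretches held the motif, and Erg held it in only 1 of its 3. The CArG box, the site of serum response factor that many smooth muscle genes carry, was in none of the 27 genes within these windows and in 1.62% of all genes. Only its strict form was searched, CC and GG around an unbroken run of A or T, so looser forms were not counted. Tagln was the smooth muscle gene without a stretch, so it was not searched. Both motifs were chosen after values were seen, so the counts beside the share of all genes are a description and not a test. A match is a description of the letters and not of a bound site. Capitals mark AGGAAG or its reverse complement, and Cldn5 is shown as a pan-endothelial gene without it.
Eng (chr2:32646345-32646594, plus strand): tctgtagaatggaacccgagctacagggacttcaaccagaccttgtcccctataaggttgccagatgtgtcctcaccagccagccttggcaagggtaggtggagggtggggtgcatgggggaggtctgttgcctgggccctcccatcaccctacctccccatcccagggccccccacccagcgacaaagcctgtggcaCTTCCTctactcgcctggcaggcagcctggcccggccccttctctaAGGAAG
Emcn (chr3:137340828-137341077, plus strand): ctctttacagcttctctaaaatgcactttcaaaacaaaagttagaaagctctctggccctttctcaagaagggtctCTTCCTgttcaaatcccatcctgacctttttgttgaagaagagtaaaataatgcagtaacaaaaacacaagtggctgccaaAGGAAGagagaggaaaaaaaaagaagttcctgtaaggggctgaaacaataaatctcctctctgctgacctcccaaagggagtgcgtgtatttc
Flt1 (chr5:147726012-147726261, minus strand): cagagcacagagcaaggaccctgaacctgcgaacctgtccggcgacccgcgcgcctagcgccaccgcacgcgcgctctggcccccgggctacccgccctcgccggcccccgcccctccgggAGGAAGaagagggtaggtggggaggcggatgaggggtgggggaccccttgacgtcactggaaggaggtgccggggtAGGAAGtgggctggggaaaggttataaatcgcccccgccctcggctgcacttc
Aqp1 (chr6:55336049-55336298, plus strand): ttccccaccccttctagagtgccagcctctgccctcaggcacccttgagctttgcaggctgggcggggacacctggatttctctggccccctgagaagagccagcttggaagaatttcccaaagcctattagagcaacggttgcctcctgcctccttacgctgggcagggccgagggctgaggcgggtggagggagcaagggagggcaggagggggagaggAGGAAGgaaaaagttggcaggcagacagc
Cldn5 (chr16:18776597-18776846, plus strand): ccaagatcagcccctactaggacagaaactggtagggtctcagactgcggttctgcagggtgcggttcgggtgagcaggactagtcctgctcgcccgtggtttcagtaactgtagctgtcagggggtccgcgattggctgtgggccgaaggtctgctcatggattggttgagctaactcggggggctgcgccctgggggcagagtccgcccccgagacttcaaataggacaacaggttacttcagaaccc
Eng and Flt1 each held the motif 2 times, as did Emcn, and Aqp1 held it 1 time.

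The libraries held 16674504 to 25407988 reads, and library 3 stood apart, with Pearson's r across genes of 0.961 to 0.970 with the others against 0.981 to 0.988 among them. Markers of other cells moved with single libraries, given here as the FPKM summed over each list. In library 3 the sum was 356 for 8 macrophage genes against 91.6 to 121 elsewhere, 1028 for 5 red cell genes against 328 to 500.4, 132 for 6 genes of regenerating fibres against 14.2 to 26.0, 77.4 for 4 adipocyte genes against 10.4 to 29.7, and 28.5 for 4 platelet genes against 9.59 to 14.4. The platelet sum was nearly all Pf4, at 27.3 FPKM in library 3, and the rest of that list lay below 1 FPKM. In library 2 the sum for 6 slow fibre genes was 3282 against 998 to 1360, and that for 5 fast fibre genes was lowest at 40132 against 46585 to 61252. Fibro-adipogenic genes summed to 332 to 440.2, Schwann cell genes to 58.9 to 131 and satellite cell genes to 1.996 to 4.04. The part of these differences in the results below was not tested. Median-of-ratios scaling gave size factors of 0.895 to 1.07, with libraries 4 and 5 under 1, and most genes lay below their means in those libraries.

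Vessel genes were measured at moderate levels. By class median, the pan-endothelial, pericyte and smooth muscle genes lay above the genes that mark arteries, veins or lymph vessels. Single genes overlapped, with Cnn1 (1.06 FPKM), Cspg4 (2.49) and Emcn (3.01) below Vwf (5.22). The median over a class, taken in each library, was 22.3 ± 4.01 FPKM for smooth muscle genes, 12.9 ± 2.17 for pan-endothelial genes, 9.08 ± 1.91 for pericyte genes, 3.16 ± 1.22 for venous genes, 3.05 ± 0.56 for arterial genes and 1.81 ± 0.35 for lymphatic genes (SD, n = 5). All genes tested had a median of 5.91 ± 0.486 FPKM. Venous and arterial medians did not differ beyond their spread, and the ranges of the pan-endothelial class (10.2 to 15.8) and of the pericyte class (6.57 to 11.3) overlapped. The venous and lymphatic classes hold 3 genes each, of which 1 was near 0, so the middle gene sets each median. In every library that gene was Ackr1 for the venous class, on 52 to 91 reads, and Flt4 for the lymphatic class. These 2 medians are thus levels of single genes. The smooth muscle median fell in a gap between Cnn1, Lmod1 and Mcam, at means of 1.06 to 11.8 FPKM, and Smtn, Tagln and Des, at 32.1 to 1808. Skeletal muscle fibres also make Des, so the size of this median rests in part on a gene they share.

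**Figure D1:**
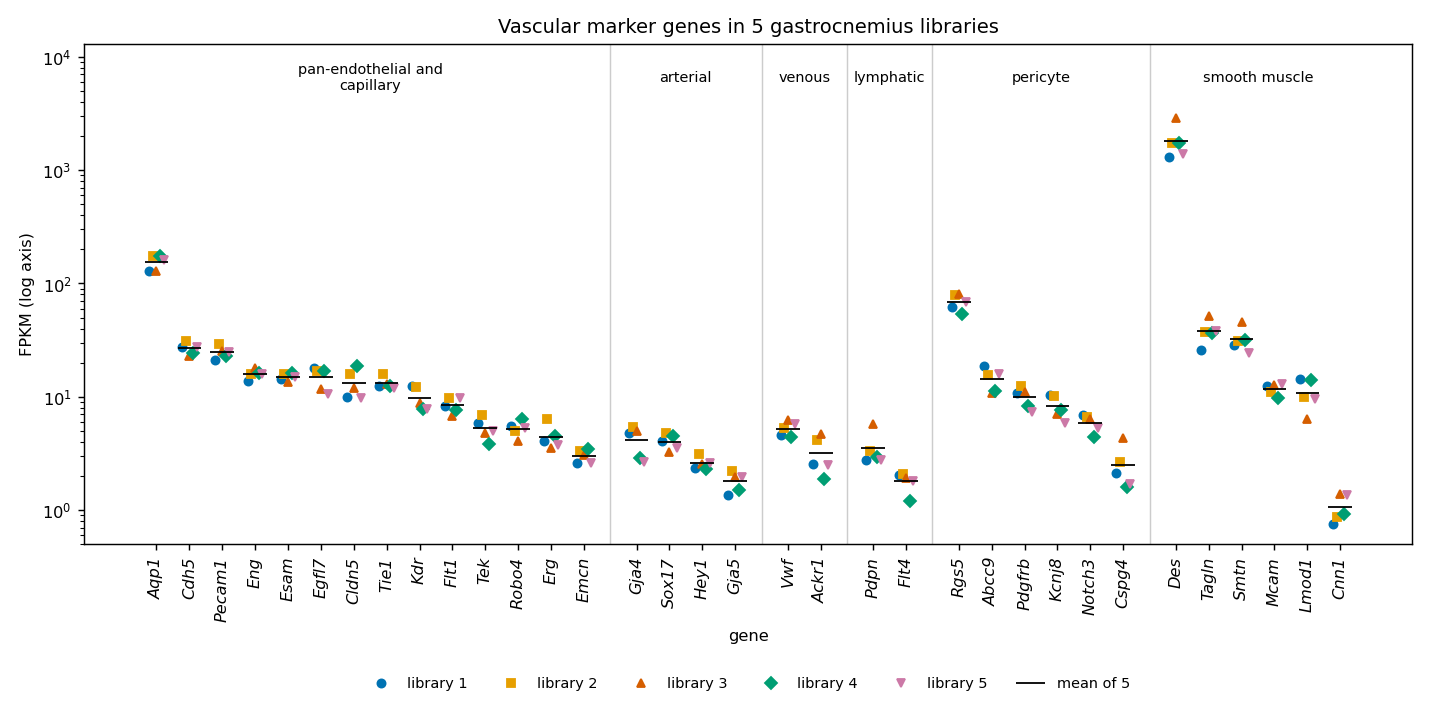
FPKM (vertical log axis) of the 34 tested vessel genes, grouped by cell class, with 1 point per library and a bar at the mean of 5. Aqp1, Rgs5 and Des lie far above the other genes of their classes, and library 3 gives the highest point for Des, Tagln, Smtn, Cspg4 and Pdpn.

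Nearly all of these genes differed between libraries by more than counting error, which was also true of most genes of the muscle. The reads of 33 of 34 tested genes were spread unevenly over the libraries at an adjusted p under 0.05 (chi-square test on reads recovered from the FPKM steps, Benjamini-Hochberg adjustment over 10709 genes), against 87.9% of all genes. Hey1 was the exception, with an adjusted p of 0.116. Such a test compares these libraries and not conditions. Limma's test of the variance against its trend called 0 of the 34 at an adjusted p under 0.05, and 0 of 10710 genes, a background of 0.0%. With 5 libraries it missed even large added spreads in simulated data, so the absence of calls does not show that these genes varied like others of their level. The median ratio of variance to trend was 1.56 for the 34 genes and 0.97 for all genes tested. At an unadjusted p under 0.05 the count was 0 of 34 and 616 of 10710 genes. With voom weights on recovered reads it was 0 adjusted and 2 unadjusted of 34, and the unadjusted count over all genes is not given for that setting. The median coefficient of variation between libraries was 20.5% for the 34 genes and 16.3% for all genes tested. It was 15.4% for pan-endothelial, 17.98% for arterial, 22.1% for pericyte, 26.3% for smooth muscle, 26.5% for venous and 28.1% for lymphatic genes.

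Library 2 held the highest level of 12 of the 34 genes, against a background of 23.2% of all genes, and the lowest level of none of them, against 9.8%. Under median-of-ratios scaling the first count was 7, against 13.5% of all genes. Library 3 held the highest level of 10 genes, against 37.4% of all genes, and the lowest of 9, against 17.1%. Library 1 was highest for 6 (21.2% of all genes) and lowest for 7 (10.2%), library 4 highest for 5 (10.5%) and lowest for 10 (38.0%), and library 5 highest for 1 (7.68%) and lowest for 8 (24.9%). Above their own means were 14 genes in library 1 (57.5% of all genes), 27 in library 2 (63.1%), 18 in library 3 (61.2%), 12 in library 4 (30.2%) and 15 in library 5 (32.2%). Counts by class follow, with no test of a difference between classes. Of the 14 pan-endothelial genes, 12 were above their own mean in library 2, and under median-of-ratios scaling 11 were so, against 42.6% of all genes. In library 3 a single pan-endothelial gene was at its highest and 6 were at their lowest, and 4 of 6 smooth muscle genes were at their highest, or 3 of 6 under median-of-ratios scaling, against 37.4% and 27.0% of all genes.

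**Figure D2:**
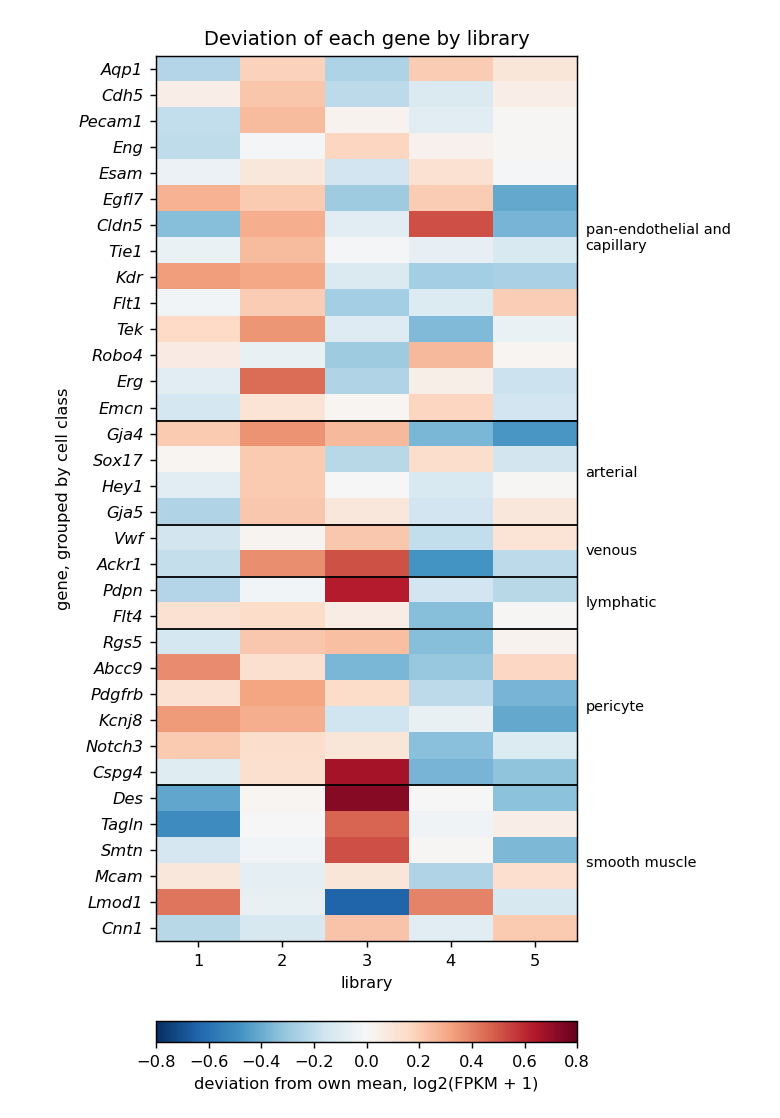
Deviation of each of the 34 genes from its own mean over the 5 libraries on the log2(FPKM + 1) scale (colour), with genes in rows grouped by cell class and libraries in columns. Library 3 is red for Des, Smtn, Tagln, Cspg4 and Pdpn and below 0 for Lmod1, Abcc9 and 11 of 14 pan-endothelial genes.

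Genes of endothelial junctions and the cell surface ranged from the smallest to the largest coefficient of variation in their class. Pecam1, which encodes the adhesion molecule CD31 (ENSMUSG00000020717, GRCm38 chromosome 11, 106654217 to 106750628), was at 21.3, 29.4, 25.1, 23.0 and 24.7 FPKM in libraries 1 to 5, or 24.7 ± 3.05 (SD, n = 5). Cdh5, the gene of VE-cadherin, which seals the junctions between endothelial cells (ENSMUSG00000031871, chromosome 8, 104101625 to 104144511), was at 27.5, 31.2, 22.8, 24.4 and 27.6 FPKM. Both were highest in library 2, but Pecam1 was lowest in library 1 and Cdh5 in library 3. Esam, an adhesion molecule of endothelial tight junctions, had the smallest coefficient of variation of the 34 genes, 7.98%, with levels from 13.4 to 16.3 FPKM. Cldn5 (chromosome 16, 18776847 to 18778262), the main claudin of endothelial tight junctions, had the largest of its class, 29.9%. It was at 9.90, 15.9, 12.0, 18.7 and 9.69 FPKM, high in libraries 2 and 4 and low in 1 and 5. Eng, the TGF-beta co-receptor endoglin, ranged from 13.7 FPKM in library 1 to 18.03 in library 3 and was the one pan-endothelial gene at its highest there. Emcn, the sialomucin endomucin of capillaries and veins, ranged from 2.59 to 3.49 FPKM.

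Of the growth factor receptor genes, Kdr, Flt1, Tek and Tie1 were all above their own means in library 2 and below them in libraries 3 and 4, and they lay on different sides in libraries 1 and 5. Kdr, the VEGF receptor VEGFR2 that carries most of the growth signal (chromosome 5, 75932827 to 75978458), was at 12.4, 12.2, 8.81, 7.81 and 7.86 FPKM. Libraries 1 and 2 were high and the other libraries low, a range of 1.59 times. Flt1, the VEGF receptor VEGFR1, which binds VEGF tightly and also exists as a soluble form, was at 8.22, 9.76, 6.77, 7.68 and 9.75 FPKM, so that it was high in library 5, where Kdr was low. Tek, the angiopoietin receptor TIE2, was at 5.91, 6.91, 4.77, 3.86 and 4.99 FPKM, highest in library 2 and lowest in library 4. Tie1, its partner receptor without a well established ligand, was at 15.7 FPKM in library 2 and 11.9 to 12.9 in the others. Robo4, a receptor that stabilises the endothelium, ranged from 4.09 FPKM in library 3 to 6.41 in library 4.

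The remaining pan-endothelial genes encode a regulator, a secreted factor and a channel. Erg, an ETS transcription factor that maintains endothelial identity (chromosome 16, 95359169 to 95586593), was at 4.06, 6.31, 3.54, 4.55 and 3.76 FPKM. Library 2 exceeded the next library by 1.39 times. Egfl7, a secreted factor of endothelial matrix whose gene hosts miR-126, was at 17.8, 16.9, 11.7, 16.9 and 10.7 FPKM, low in libraries 3 and 5. Its span overlaps Agpat2 on the opposite strand, and without a stated strand setting reads of the pair cannot be told apart. The same limit holds for Eng with Fpgs (4.29 FPKM) and for Tagln with Pcsk7 (4.45 FPKM). Aqp1, the water channel of capillary endothelium and of red cells (chromosome 6, 55336432 to 55348555), was the most abundant gene of the class at 154 ± 23.3 FPKM. It was at 129 FPKM in library 1 and 128 in library 3, below the 163 to 175 of the other libraries, while the summed red cell genes were highest in library 3.

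Arterial genes were all highest in library 2 when scaled by the library total, but only 2 of the 4 were so under median-of-ratios scaling, against 23.2% and 13.5% of all genes. Gja4, the gene of connexin 37, which forms gap junctions between arterial endothelial cells, was at 4.82, 5.44, 5.02, 2.89 and 2.64 FPKM (chromosome 4, 127311421 to 127314039). Libraries 1 to 3 lay above libraries 4 and 5, with a range of 2.06 times. Gja5, the gene of connexin 40, ranged from 1.35 FPKM in library 1 to 2.22 in library 2. Its span overlaps Gpr89 on the opposite strand, at a mean of 2.40 FPKM, with the limit given for Egfl7. Sox17, a transcription factor of arterial identity, was at 4.03, 4.76, 3.26, 4.49 and 3.50 FPKM. Hey1, a target of Notch signalling, ranged from 2.29 to 3.13 FPKM, from 94 to 145 reads. The 4 genes had a median deviation of 0.21 in library 2 on the log2(FPKM + 1) scale, against 0.05 for all genes tested. Under this measure the other libraries lay between -0.14 and 0.04.

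Both tested venous genes were highest in library 3 and lowest in library 4, against 37.4% and 38.0% of all genes. Under median-of-ratios scaling only 1 of 2 was so in each case, against 27.0% and 18.6%. Vwf, von Willebrand factor, which is stored in endothelial cells and binds platelets, was at 4.58, 5.28, 6.18, 4.40 and 5.69 FPKM. Ackr1, an atypical chemokine receptor of venules (chromosome 1, 173331886 to 173333750), was at 2.52, 4.19, 4.71, 1.88 and 2.48 FPKM, on 52 to 91 reads. Libraries 2 and 3 were high, and the range was 2.501 times. Cadm3, at a mean of 7.74 FPKM, overlaps Ackr1 on the same strand. The handling of shared reads is not stated, so reads of the overlap cannot be assigned with certainty. Sele, the gene of E-selectin, which activated endothelium displays to bind leukocytes, was near the limit of detection with 8, 3, 11, 2 and 5 reads. Its highest level was 0.227 FPKM in library 3 (95% Poisson interval 0.113 to 0.405), which overlaps the interval in library 1 (0.0517 to 0.236). These intervals cover counting error only.

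Lymphatic genes were low. Flt4, the VEGF-C receptor VEGFR3, which adult tissue uses mainly on lymph vessels, was at 2.04, 2.09, 1.91, 1.21 and 1.81 FPKM, lowest in library 4. Pdpn, podoplanin, a surface glycoprotein of lymphatic endothelium that fibroblasts and macrophages can also carry (chromosome 4, 143267431 to 143299564), was at 2.74, 3.33, 5.78, 2.96 and 2.77 FPKM. Library 3 exceeded the next library by 1.74 times, and the summed macrophage genes were highest in the same library. Prox1os, a transcript on the strand opposite the lymphatic regulator Prox1, had 1 read in library 2 and none in the others, where 3 reads would be 0.143 to 0.217 FPKM. Prox1 itself was at 0.421 ± 0.136 FPKM (SD, n = 5). Other lymphatic genes were measured, with Lyve1, a hyaluronan receptor, at 3.65, 5.30, 7.34, 1.75 and 5.01 FPKM and the chemokine gene Ccl21a at 5.26 to 9.74. Both were lowest in library 4, as was Flt4, against 38.0% of all genes, while Pdpn was lowest in library 1 at 2.74 FPKM. Below a mean of 1 FPKM, Prox1 was lowest in library 4 and Mmrn1, another lymphatic gene, in library 1. Lyve1, like Pdpn, was highest in library 3, where the summed macrophage genes were highest, and a link was not tested. Near-identical copies of Ccl21a exist, and reads may be split between them.

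Pericyte genes were all below their own means in library 4, against 69.8% of all genes, so that the direction was that of most genes there. Under median-of-ratios scaling 5 of 6 were below, against 45.4%. Rgs5, a regulator of G protein signalling and the most abundant pericyte gene of the list (chromosome 1, 169655501 to 169695813), was at 61.5, 78.9, 80.5, 53.6 and 69.2 FPKM. Pdgfrb, the receptor through which PDGF-B recruits pericytes, was at 10.8, 12.4, 10.96, 8.34 and 7.34 FPKM, low in libraries 4 and 5. Notch3, the Notch receptor of mural cells, was at 6.94, 6.56, 6.31, 4.43 and 5.34 FPKM, also low in libraries 4 and 5. Cspg4, the proteoglycan NG2, had the largest coefficient of variation of the tested genes here, 45.0%, and was at 2.14, 2.67, 4.34, 1.60 and 1.69 FPKM. Its level in library 3 exceeded the next by 1.63 times.

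The potassium channel genes of pericytes lie side by side on chromosome 6, and they differed in library 5. Kcnj8 (142564837 to 142571614) encodes the pore Kir6.1 of an ATP-sensitive potassium channel, and Abcc9 (142587862 to 142702315) encodes its regulatory subunit SUR2, a form of which muscle fibres also use. Kcnj8 was at 10.4, 10.1, 7.10, 7.67 and 5.81 FPKM. Abcc9 was at 18.7, 15.6, 10.8, 11.3 and 16.0 FPKM, so both were high in libraries 1 and 2, but in library 5 Kcnj8 was at its lowest and Abcc9 was second only to library 1. The ratio of Kcnj8 to Abcc9 in FPKM was 0.362 in library 5 and 0.558 to 0.681 in the others.

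**Figure D3:**
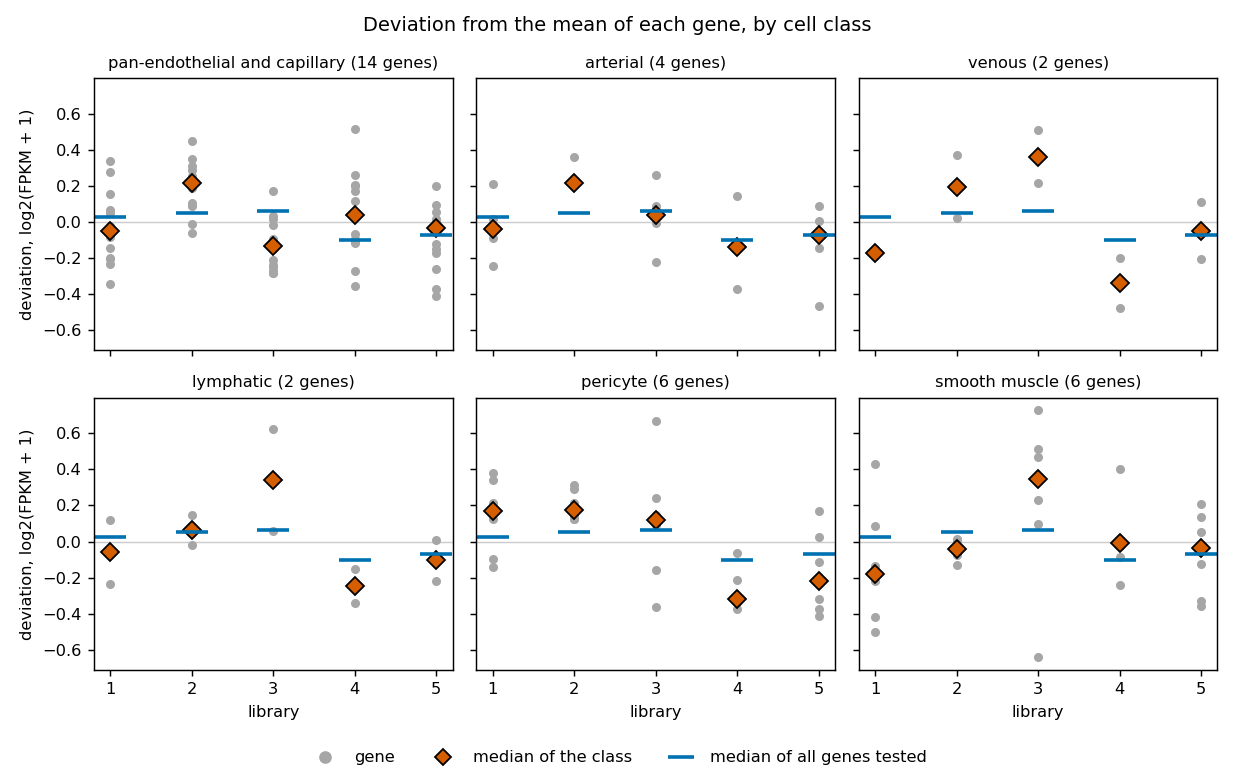
Deviation from the mean of each gene on the log2(FPKM + 1) scale (vertical axis) by library (horizontal axis) for the 6 cell classes; grey points are genes, diamonds the median of the class and blue bars the median of all genes tested. The pan-endothelial median is highest in library 2 (0.22) and lowest in library 3 (-0.13), and the smooth muscle median is highest in library 3 (0.35).

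Of the 6 smooth muscle genes, 5 were above their own means in library 3, against 61.2% of all genes. Des, the intermediate filament gene desmin, which smooth muscle shares with skeletal muscle fibres (chromosome 1, 75360329 to 75368579), was at 1297, 1750.05, 2870, 1741 and 1381 FPKM. At 1808 ± 628 FPKM (SD, n = 5) it lay far above every other gene of the list, and Gm15179, which overlaps it on the opposite strand, was at 41.8 FPKM. Tagln, the gene of the actin-binding protein SM22 (chromosome 9, 45929619 to 45936058), was at 25.9, 37.2, 51.6, 36.4 and 38.4 FPKM. Smtn, smoothelin, a cytoskeletal protein of contractile smooth muscle, was at 28.5, 30.9, 45.3, 31.6 and 24.3 FPKM. Each of these had its highest level in library 3, by 1.34 (Tagln) to 1.64 times (Des) over the next. Cnn1, calponin, had only 38 to 82 reads and ranged from 0.755 to 1.39 FPKM, with libraries 3 and 5 nearly equal.

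Lmod1, leiomodin, an actin nucleator of smooth muscle (chromosome 1, 135324807 to 135368065), went the other way at 14.4, 10.0, 6.35, 14.1 and 9.51 FPKM. It was lowest in library 3, by 1.498 times under the next, and high in libraries 1 and 4. It had the largest ratio of variance to trend of the 34 genes, 5.68, with an unadjusted p of 0.0620 and an adjusted p of 0.894 in limma. Mcam, the adhesion molecule CD146 of mural and endothelial cells, ranged from 9.79 to 13.0 FPKM. The median deviation of the 6 genes in library 3 was 0.35, against 0.06 for all genes tested, and the genes of regenerating fibres had their highest sum in the same library. Acta2, the smooth muscle actin, was also highest there at 69.5 FPKM against 29.9 to 44.5, and the smooth muscle myosin gene Myh11 was at 13.3 FPKM against 9.66 to 12.5.

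Pairs of genes with related roles were compared within each library on the log2(FPKM + 1) scale. Kdr lay above Flt4 by 1.93 ± 0.21, Gja4 above Gja5 by 0.86 ± 0.39, Pdgfrb above Cspg4 by 1.68 ± 0.31 and Tagln above Cnn1 by 4.22 ± 0.21 in 5 of 5 libraries (SD, n = 5). Tek lay below Tie1 by -1.18 ± 0.19 and Kcnj8 below Abcc9 by -0.75 ± 0.34 in 5 of 5. For each of these 6 pairs the exact two-sided sign-flip permutation test gave p = 0.0625, or 0.0833 after Benjamini-Hochberg adjustment over 8 pairs. That is the smallest p that 5 samples allow, so no pair could pass 0.05. Kdr exceeded Flt1 in 4 of 5 libraries, with a mean of 0.18 ± 0.32 and a range from -0.28 in library 5 to 0.54 in library 1 (exact permutation p = 0.188, adjusted 0.214). Pecam1 lay below Cdh5 in 4 of 5, by -0.11 ± 0.18, and above it in library 3 (exact permutation p = 0.25, adjusted 0.25). The difference between Gja4 and Gja5 ranged from 0.30 in library 5 to 1.31 in library 1, the widest range of the 8 pairs. Pdgfrb exceeded Cspg4 by 1.16 in library 3 and by 1.63 to 1.90 in the others.

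**Figure D4:**
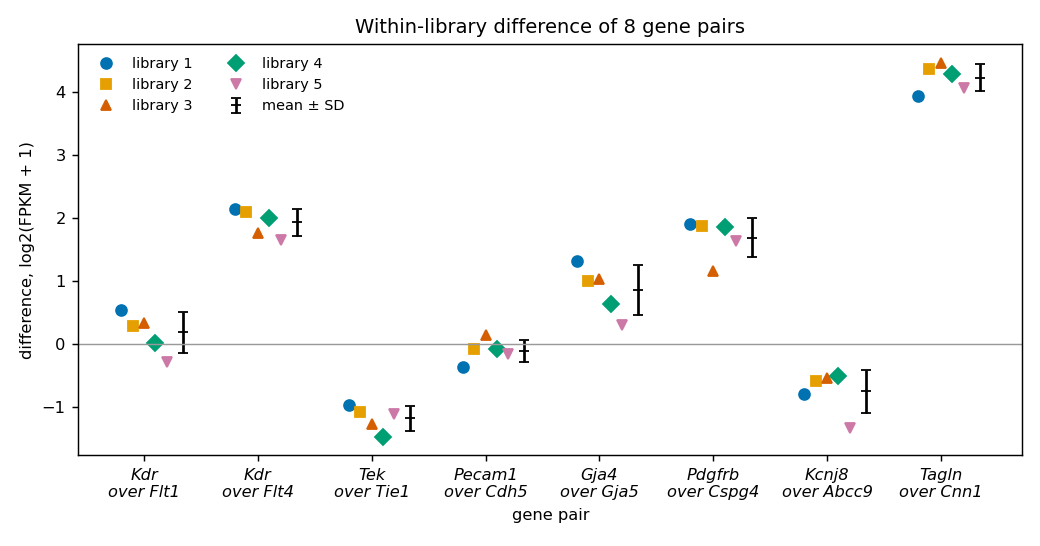
Within-library difference of 8 gene pairs on the log2(FPKM + 1) scale (vertical axis), with 1 point per library and the mean ± SD of 5 libraries in black. The differences of 6 pairs keep their sign in all 5 libraries, and those of Kdr over Flt1 and Pecam1 over Cdh5 cross 0.

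Other genes of the vessel pathways were taken from 7 lists of 90 genes, of which 89 were in the table and 82 reached 1 FPKM. Limma called 0 at an adjusted p under 0.05, with the same limit. At an unadjusted p under 0.05 it called 9 of the 82, against 616 of 10710 genes. Of the 82, 75 varied beyond counting error, against 87.9% of all genes. Library 2 was highest for 29 of the 82 and library 3 for 25, against 23.2% and 37.4% of all genes. Among VEGF and angiopoietin genes, 5 of 9 were highest in library 2 and none in library 3. Vegfb, a VEGF that binds Flt1, was the most abundant ligand gene at 145 ± 24.4 FPKM, with 184 in library 2 against 123 to 152. Vegfa, the main ligand of Kdr, was at 92.3, 80.5, 44.8, 63.4 and 71.2 FPKM, lowest in library 3. Nrp1, a co-receptor of VEGF, was at 10.9 ± 2.12 FPKM.

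The Notch and ephrin genes, 10 tested, were highest in library 2 for 5 and in library 3 for none. Across all genes the shares were 23.2% and 37.4%. Under median-of-ratios scaling 13.5% of all genes were highest in library 2, and the counts of these further lists were not made. Jag2, a Notch ligand, was at 14.3 ± 0.473 FPKM, the Notch target Hes1 ranged from 9.03 to 15.9 and Ephb4, an ephrin receptor of veins, from 6.64 to 8.78. Of 11 PDGF and TGF-beta genes, Pdgfb, the ligand of Pdgfrb, was at 10.0, 12.2, 13.1, 11.8 and 13.4 FPKM, and Tgfbr2, a TGF-beta receptor, ranged from 8.97 in library 4 to 19.3 in library 3. Of 11 genes of capillary lipid handling and transport, 4 were highest in library 2 and 5 in library 3. Those libraries held the highest level of 23.2% and 37.4% of all genes. Fabp4, a fatty acid binding protein of capillaries and adipocytes, was at 257 FPKM in library 3 against 153 to 234, where the summed adipocyte genes were also highest. Cd36, a fatty acid transporter that fibres share, was at 85.4 FPKM in library 2 against 54.0 to 67.5, and Cav1, the gene of caveolin 1, ranged from 44.2 to 61.6. Of 14 surface and flow genes, 5 were highest in library 2, 5 in library 3 and 4 in library 4. For all genes these shares were 23.2%, 37.4% and 10.5%. Cd34, a sialomucin of endothelium and progenitor cells, reached 41.9 FPKM in library 3 against 24.3 to 32.8. Ace, the angiotensin-converting enzyme, ranged from 10.8 to 15.6 and Podxl, podocalyxin, from 8.49 to 14.4. Of 14 further pericyte and smooth muscle genes, 9 were highest in library 3, against 37.4% of all genes. The list was led by Tpm2, a tropomyosin that slow fibres also make, at 4635 FPKM in library 2 against 2572 to 3054, and by Synpo2, an actin-binding protein of smooth and skeletal muscle, at 132 ± 20.0 FPKM.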

How the data were processed

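Messenger RNA selected on poly-T beads from about 20 mg of gastrocnemius per sample was sequenced, per the labels' protocols, for 1 group of 5 samples. The submitters' processing notes list the build mm10 and, in no order and with no role, edgeR, DESeq2, HTSeq 0.6.1, STAR 2.5 and TopHat. The annotation release, the strand setting and the handling of shared reads are not stated there. Values in the deposited table are FPKM, made by the authors from reads per gene, a gene length and the library total; no header names the unit, which was read from the steps of the values. Library totals and whole reads were recovered from those steps with a tolerance of 0.001 of a read, for 20838 of 20840 genes above 0 (99.99%), and the reads summed to 98.4% ± 0.148 of the totals (SD, n = 5). For 4544 genes the annotated exon length gave whole reads, and for the others the smallest length that did so was used, so the reads rest on it. At these depths 3 reads correspond to a floor of 0.118 to 0.180 when the total is scaled to 1e6 reads. Poisson intervals at 95% cover counting error only.

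Symbols and positions came from GENCODE M21 (GRCm38, the assembly mm10 names), which matched 34490 of 35275 identifiers. The tests took the 10710 genes whose mean reached 1 FPKM, as log2(FPKM + 1). In limma 3.58.1 (R 4.3.3) the ratio of each variance to its abundance trend was referred to an F distribution (4 and 3.93 degrees of freedom) in a one-sided test, adjusted by Benjamini-Hochberg. Tested on simulated data with 5 libraries, it called none of the genes given a moderately or strongly raised spread and most of those given an extreme one, so the lack of a call carries little weight. Recovered reads were tested against library totals by chi-square. A deviation is a log2(FPKM + 1) value minus the mean of the gene over libraries. Gene pairs were tested with an exact sign-flip permutation test over 32 sign patterns. Alternatives covered the pseudocount (0.1), the filter (none, or 5 FPKM), median-of-ratios scaling, voom weights and leaving out each library. Other tools were matplotlib 3.10.9, pandas 2.3.3, scipy 1.17.1 and numpy 2.4.6 under Python 3.11.15.

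The members, lists and pairs were chosen with earlier results of these data known. By rule, all 36 members and the 3 most abundant genes of each further vessel list were named. The top 2 of each list of another cell type are given only within its sum, apart from Pf4. Klf4, S1pr1, Prox1, Lyve1, Ccl21a, Mmrn1 and Myh11 were chosen after values were seen, as were the 2 motifs. So were the naming of Pf4 and the overlapping genes Agpat2, Cadm3, Gm15179, Gpr89, Fpgs and Pcsk7.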

Additional observations from a re-analysis of the deposited data

Results flagged for a closer look

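In each of these results 1 library lay far from the other 4, by the ratio of its gap to the whole range (Dixon's test at its 95% critical value). Of 88 values checked, 12 met it, and chance alone flags about 1 in 20 groups. Among the vessel genes, Tie1 was at 15.7 FPKM in library 2 against 11.9 to 12.9, Pdpn at 5.78 in library 3 against 2.74 to 3.33 and Des at 2870 in library 3 against 1297 to 1750.05. Prox1os was at 0.0652 FPKM in library 2, which is 1 read, against 0 in the others. Of the further vessel genes, Id1, a target of BMP signalling, was at 6.73 FPKM in library 1 against 17.3 to 20.3, and Tpm2 at 4635 in library 2 against 2572 to 3054. The summed lists of other cells stood out in library 3 for macrophage (356), red cell (1028), adipocyte (77.4), regenerating fibre (132) and platelet genes (28.5), and in library 2 for slow fibre genes (3282). Nearly all of the platelet sum was Pf4. None of these was tested against a condition, since the series has 1 group.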

How the results depend on the processing

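Of 265 values under alternatives for 37 results, 256 lay within the spread between libraries or within 1.5 times the count reported. Of 148 signed values 4 changed sign, each moving by less than the spread between libraries. With median-of-ratios scaling the lymphatic deviation in library 2 was -0.0058 in place of 0.06, and the arterial one in library 3 was -0.02 in place of 0.04. The latter was -0.00047 without library 1, and the smooth muscle one in library 2 went from -0.04 to 0.10 without library 3. The genes highest in library 2 numbered 7 in place of 12 under median-of-ratios scaling (13.5% of all genes) and 6 of 23 at 5 FPKM or more (21.2%), and those highest in library 3 numbered 6 of 23 in place of 10 of 34 at 5 FPKM or more (37.0%); fewer genes enter at that filter. With no filter the lymphatic deviation in library 3 was 0.059 in place of 0.34, as Prox1os enters. At 5 FPKM or more the venous median was 5.22 and the smooth muscle median 31.6 FPKM, as lower genes leave. With 1 library left out the count beyond counting error was 30 (of 33 tested, without library 3) to 33, and 0 genes of the list passed limma's test. Under median-of-ratios scaling 2 of 4 arterial genes were highest in library 2 (13.5% of all genes). Of the 2 venous genes 1 was highest in library 3 (27.0%) and 1 lowest in library 4 (18.6%). These counts of classes by library, and those for pan-endothelial, pericyte and smooth muscle genes, were chosen after seeing the data. Without library 3, limma called 4 genes in all, none of the list. The depth limits Sele, Prox1os and Cnn1 most. No paired analysis was possible because the labels give 1 group only.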

Other observations

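Klf2, Klf4 and S1pr1 were each lowest in library 1. Klf2, a transcription factor that shear stress induces in endothelium, was at 8.62, 41.2, 37.4, 40.3 and 27.8 FPKM in libraries 1 to 5, and Klf4, a related factor, was at 6.86, 17.1, 20.7, 19.4 and 22.8. S1pr1, a sphingosine-1-phosphate receptor of endothelium, was at 7.06 FPKM in library 1 against 10.9 to 12.9. Klf4 and S1pr1 were picked after values were seen. Of the 14 tested surface and flow genes, the list of S1pr1, 5 were lowest in library 1 and 7 in library 4. Klf2 and Klf4 are from the endothelial transcription factors, of which 3 of 13 were lowest in library 1 and 4 in library 4. The shares of all genes were 10.2% and 38.0%. Most genes of both lists were lowest in other libraries than library 1. Limma called none of Klf2, Klf4 and S1pr1 at an adjusted p under 0.05. The median deviation of pan-endothelial genes in library 1 was -0.05. Among the other transcription factors of the list, Mef2c, which muscle fibres share, was at 72.1 ± 13.9 FPKM and Tcf15, a factor of capillary endothelium, at 22.2 ± 4.41 (SD, n = 5).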
